A study of Homo sapiens with 72 samples.

Results

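The mRNAs of cholesterol and fatty acid synthesis were followed through RNA-seq and RNA immunoprecipitation data on G3BP1, an RNA-binding protein that nucleates stress granules. The set holds 31 genes of the 61541 in the deposited tables, chosen by symbol for what their proteins do. They include 7 of the mevalonate and isoprenoid steps, 11 of the squalene and sterol steps and 7 of the fatty acid steps. Another 4 are called regulators here: SREBF1 and SREBF2, which encode SREBP transcription factors, with SCAP and INSIG1. The last are the sterol carrier STARD4 and the phosphatidate phosphatase LPIN1. All 31 were found and had an adjusted p in each of 11 tables, so none was lost to a filter on low values. The cells were U2OS, a human osteosarcoma line, in 2 RNA-seq experiments with 2 libraries per group. In the first experiment, wild-type (WT) cells, untransfected cells with a knockout of G3BP1 and its paralog G3BP2 (G3BP1/2), and knockout cells given a G3BP1 transgene by Lipofectamine for 24 h were compared. The second experiment had untransfected G3BP1/2 knockout cells, knockout cells given WT G3BP1 (wild-type rescue) and knockout cells given G3BP1 without its NTF2 domain (NTF2-deletion rescue), the last 2 sampled 24 h after transient transfection. Each of these 3 was sampled without stress and after 2 h in 200 uM sodium arsenite, a stressor that induces stress granules. RNA immunoprecipitation (RIP-seq) set 3 immunoprecipitates against 3 inputs from FlpIn 293 Trex cells, an embryonic kidney line, with stable FLAG-G3BP1 induced for 24 h by 1 ug/mL tetracycline.

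Every group was grown in DMEM with 10% fetal bovine serum, which supplies lipoprotein cholesterol and fatty acids. No group was transfected with an empty vector, so the G3BP1 transgene and the transfection itself cannot be told apart in any comparison of rescued with knockout cells. Both RNA-seq experiments measured bulk poly-A RNA, so a change in all cells and a larger change in a transfected share of them cannot be told apart either. The labels do not say whether the 2 libraries of a group came from separate cultures, and the p-values may therefore measure technical spread only.

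Cells make cholesterol from acetyl-CoA through mevalonate, isoprenoid diphosphates, squalene and lanosterol, and make fatty acids from the same acetyl-CoA through malonyl-CoA, followed by elongation and desaturation. Most genes of both routes are targets of the SREBP factors encoded by SREBF1 and SREBF2. SCAP carries SREBP from the endoplasmic reticulum to the Golgi, where it is cleaved into its active form, and INSIG1 holds the SCAP-SREBP complex back when sterols are plentiful. SREBF1 favours fatty acid genes and SREBF2 favours sterol genes, and both respond to their own products, as INSIG1 does.

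The promoters of the set are shown because SREBP acts there. Of the 31 genes, 27 had at least 1 RefSeq promoter window (GRCh38.p14), 38 windows of 300 bases in all, running from 250 bases before to 50 after a transcript start. Both strands were searched for CACNCCA, the core of a sterol regulatory element, CCAAT, the box bound by NF-Y, and GGGCGG, the box bound by Sp1. The motif CACNCCA was in 14 of the 38 windows (36.8%), against 17.6% of all 35116 windows. CCAAT was in 24 (63.2%), against 34.6%, and GGGCGG in 33 (86.8%), against 45.0%. Some genes have overlapping windows, so windows are not independent, and a match is a description of letters and not a site in use. Of the genes with a CACNCCA match before the start, the 4 with calls in the most tables were SC5D (sterol C5 desaturase), SCD (stearoyl-CoA desaturase), SREBF2 and EBP (the sterol isomerase). Their 250 bases before the start, 5′ to 3′ on the gene's strand, are given with the matches of all 3 motifs in capitals on either strand.
SC5D, chr11:121292602-121292851, plus strand: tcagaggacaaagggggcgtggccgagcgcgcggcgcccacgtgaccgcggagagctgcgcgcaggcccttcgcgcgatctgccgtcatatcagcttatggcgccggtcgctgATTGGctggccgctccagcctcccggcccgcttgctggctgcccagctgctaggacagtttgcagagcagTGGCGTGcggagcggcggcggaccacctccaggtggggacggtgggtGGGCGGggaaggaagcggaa
SCD, chr10:100346983-100347232, plus strand: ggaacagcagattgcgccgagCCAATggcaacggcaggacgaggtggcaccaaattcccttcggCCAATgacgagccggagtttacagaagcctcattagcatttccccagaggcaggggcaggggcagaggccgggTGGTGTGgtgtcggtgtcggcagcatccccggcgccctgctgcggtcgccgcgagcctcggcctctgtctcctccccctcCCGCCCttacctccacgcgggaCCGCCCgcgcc
SREBF2, chr22:41832855-41833104, plus strand: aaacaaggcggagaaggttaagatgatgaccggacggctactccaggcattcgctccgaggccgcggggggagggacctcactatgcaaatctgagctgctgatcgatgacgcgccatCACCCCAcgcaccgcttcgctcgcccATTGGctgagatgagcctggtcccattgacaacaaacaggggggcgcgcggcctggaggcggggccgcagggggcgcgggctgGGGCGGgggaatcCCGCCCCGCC
EBP, chrX:48521558-48521807, plus strand: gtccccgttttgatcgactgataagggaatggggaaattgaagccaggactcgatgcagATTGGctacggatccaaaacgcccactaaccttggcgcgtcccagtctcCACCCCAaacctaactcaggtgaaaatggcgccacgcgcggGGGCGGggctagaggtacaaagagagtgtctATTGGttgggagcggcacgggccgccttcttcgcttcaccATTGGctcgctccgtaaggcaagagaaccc
The CACNCCA match began 67 bases before the start in SC5D, 113 in SCD, 132 in SREBF2 and 142 in EBP. Each of the 4 also had a CCAAT and a GGGCGG match on one strand or the other.

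Whole reads per library were recovered from the deposited base means for all 31 genes in both RNA-seq experiments, and levels are given as normalised reads. Gene reads per library ranged from 33.9 M to 46.0 M in the first experiment and from 10.8 M to 26.4 M in the second. Each experiment has its own normalisation, so levels are compared only within one. The libraries expressed VIM, SPARC and COL1A1, markers of mesenchymal and bone-lineage cells, at base means of 72390, 68050 and 87410 in the first experiment and 17160, 14130 and 5839 in the second, while the blood marker PTPRC stood at 21.3 and 3.03. Of the same list RUNX2 was at 924.3 and 116.0, and COL1A2 was low, at 17.5 and 8.99. The markers listed for 293 lines did not set the FlpIn 293 Trex libraries apart: NEFL stood at 1078, CDH2 at 785.3, PAX2 at 45.8 and NEFM at 4.87, while NEFL and CDH2 were at 3823 and 13030 in the first U2OS experiment, each table having its own scale. Of the mesenchymal and bone-lineage list, COL1A1, SPARC and RUNX2 were at 26.4, 32.0 and 69.0 in the FlpIn 293 Trex libraries. COL1A2 was at 0 there, but VIM was high, at 11620, so that list did not separate the lines as a whole. PTPRC was at 0. In the first experiment, G3BP1 had 18203 and 19095 normalised reads in the 2 wild-type libraries, 12670 and 12696 in the knockout libraries and 20450 and 20705 in the rescue, so most of the transcript remained under the knockout label. G3BP2 had 8143 and 8655 in wild-type and 6433 and 6645 in knockout libraries. In the second experiment G3BP1 was higher than in knockout cells by 7.31 ± 0.04 (standard error, SE) on the log2 scale in the wild-type rescue and by 7.75 ± 0.05 in the NTF2-deletion rescue, per the authors' deposited table of each. The second experiment had no wild-type cells, so G3BP1 in its rescues cannot be set against a wild-type level. mRNA reads cannot show whether protein was absent.

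Giving knockout cells wild-type G3BP1 in the second experiment went with lower mRNA of most genes of the set. Comparing wild-type rescue with knockout cells, both unstressed, 20 of the 31 genes were lower and 2 were higher at an adjusted p under 0.05 from DESeq2's Wald test, in the authors' deposited table. Of all tested genes 42.1% were called, 23.0% higher and 19.1% lower. The median log2 change of the 31 genes was -0.57, against -0.03 for all tested genes. The desaturases, 3 regulators and STARD4 changed most, the sterol enzymes by less, and the mevalonate steps were split.

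Among the regulators, SREBF1, SREBF2 and INSIG1 fell and SCAP was not called. SREBF1 had 5198 and 5307 normalised reads in the knockout libraries and 1698 and 1773 in the wild-type rescue, a 3.03-fold lower mean. SREBF2 had 4779 and 5037 against 1823 and 1874, which is 2.65-fold lower. INSIG1 had 603.9 and 609.1 against 164.0 and 189.2, which is 3.43-fold lower. For each of the 3, both rescue libraries lay below both knockout libraries, as they did for 37.8% of all genes, so with 2 libraries a group such separation is common. The log2 changes were -1.61 ± 0.07 (SE) for SREBF1, -1.42 ± 0.07 for SREBF2 and -1.76 ± 0.17 for INSIG1, with adjusted p of 1.12e-132, 3.43e-99 and 1.46e-23 in the authors' deposited table (DESeq2). SCAP had 2335 and 2432 reads in knockout and 2693 and 2694 in rescued libraries, a log2 change of 0.16 in the authors' deposited table that did not pass.

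The fatty acid desaturases fell furthest of the 31. FADS2, the delta-6 desaturase of polyunsaturated fatty acid synthesis, had 9705 and 10081 normalised reads in knockout and 1230 and 1290 in rescued libraries, 7.85-fold lower. SCD, which makes monounsaturated fatty acids, had 29124 and 29535 against 7449 and 7762, 3.86-fold lower. FADS1, the delta-5 desaturase, had 6547 and 6835 against 1830 and 1858, 3.63-fold lower. The 3 desaturases shared a direction and their groups did not overlap, as for 82.2% of all genes. Their log2 changes were -2.98 ± 0.06, -1.97 ± 0.04 and -1.87 ± 0.06 (SE) in the authors' deposited table, with an adjusted p of 1.83e-200 for FADS1 and one listed as 0 for the other 2 (DESeq2). The enzymes that build the chain had no common direction: ACACA, acetyl-CoA carboxylase, fell by 0.57 on the log2 scale, ACLY, which supplies cytosolic acetyl-CoA, rose by 0.28 (adjusted p = 0.000596), and the synthase FASN (0.03) and the elongase ELOVL6 (0.17) were not called, all in the authors' deposited table (DESeq2). FASN had 10910 and 11799 reads in knockout and 11340 and 12121 in rescued libraries, which overlap.

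Of the 11 squalene and sterol enzymes, 8 fell and none rose. LSS, the cyclase that forms lanosterol, had 2847 and 2895 normalised reads in knockout and 1427 and 1603 in rescued libraries, and its log2 change of -0.94 in the authors' deposited table was the furthest of this group. DHCR7, which acts at the last steps to cholesterol, had 3154 and 3236 against 1930 and 2016, and SC5D had 815.3 and 888.6 against 531.0 and 566.5. FDFT1, squalene synthase, fell by 0.76, HSD17B7 by 0.68, EBP by 0.62, MSMO1 by 0.54 and SQLE, squalene epoxidase, by 0.48 on the log2 scale in the authors' deposited table. CYP51A1 (-0.17), NSDHL (-0.14) and TM7SF2 (0.14) were not called there. CYP51A1 spread from 123.8 to 208.7 reads between the 2 knockout libraries, which was wider than its difference between groups.

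The 7 mevalonate and isoprenoid genes gave no common direction: MVK, IDI1 and ACAT2 fell, HMGCS1 rose, and PMVK, MVD and FDPS were not called. MVK, mevalonate kinase, had 344.2 and 348.6 normalised reads in knockout and 170.9 and 184.8 in rescued libraries. HMGCS1, which makes the HMG-CoA that feeds mevalonate, had 2299 and 2354 against 2777 and 2797, a log2 change of 0.24 ± 0.07 (SE) with an adjusted p of 0.00217 in the authors' deposited table (DESeq2). Its 2 groups did not overlap, yet it moved against SREBF2 and most sterol enzymes. The median of all genes whose base mean reached 100 was itself 0.18 above 0 in that table. With the fold changes centred on this median, HMGCS1 was at 0.06 (adjusted p = 0.506) and ACLY at 0.10 (adjusted p = 0.282), so neither rise passed, while all 20 decreases did. The sterol carrier STARD4 fell from 1135 and 1231 to 400.7 and 430.0 reads and LPIN1, which makes diacylglycerol, from 1108 and 1119 to 810.4 and 863.5.

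**Figure D1:**
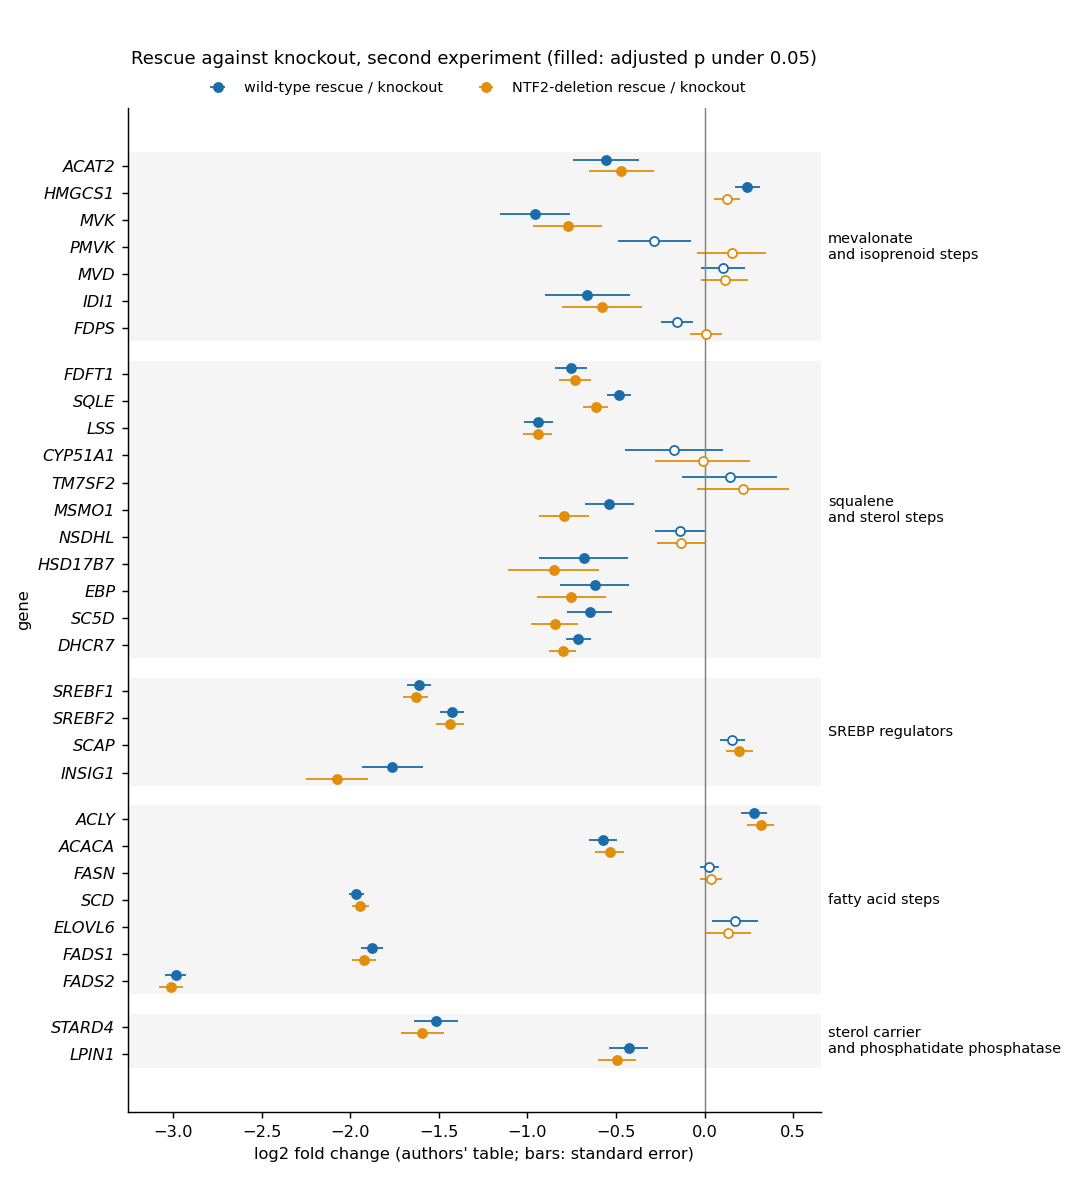
Log2 fold change of each of the 31 genes in wild-type rescue (blue) and NTF2-deletion rescue (orange) against the same unstressed knockout libraries, with the authors' standard error as bars, 2 libraries per group; filled points have an adjusted p under 0.05. FADS2 lies near -3 in both, the regulators SREBF1, SREBF2 and INSIG1 between -1.42 and -2.08, and HMGCS1 and ACLY to the right of 0.

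G3BP1 without its NTF2 domain, the part through which G3BP1 dimerises, gave levels close to those of wild-type G3BP1. Against the same knockout libraries, 20 genes were lower and 2 higher in the NTF2-deletion rescue (41.5% of all tested genes called, 22.8% higher and 18.7% lower), with a median of -0.61, in the authors' deposited table. The 2 higher genes, SCAP and ACLY, did not pass after centring, and limma-voom lost ACAT2 and SCAP without 1 library each. FADS2 had 1167 and 1280 normalised reads, SCD 7431 and 7828, and FADS1 1714 and 1818 in the 2 libraries. SREBF1 had 1635 and 1759, SREBF2 1687 and 1931, and INSIG1 139.0 and 140.9. For SREBF1, SREBF2, SCD and FADS2 the ranges of the 2 rescues overlapped, while INSIG1 and FADS1 were slightly lower with the deletion. The difference between the rescues, wild-type minus NTF2-deletion, passed the test for 0 of the 31 genes (0.0185% of all genes). At an unadjusted p under 0.05 there were 0 (0.716% of all genes), and by limma-voom on the recovered reads 0 (1.25%). With shares this low, 0 of 31 does not set these genes apart from all genes. Differences ranged from -0.44 for PMVK (95% interval -0.99 to 0.12) to 0.31 for INSIG1 (-0.17 to 0.79) on the log2 scale. For SCD the interval was narrow, and for INSIG1 or CYP51A1 it was too wide to call the rescues alike. Both tables share the knockout libraries, which makes the summed error too large.

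**Figure D2:**
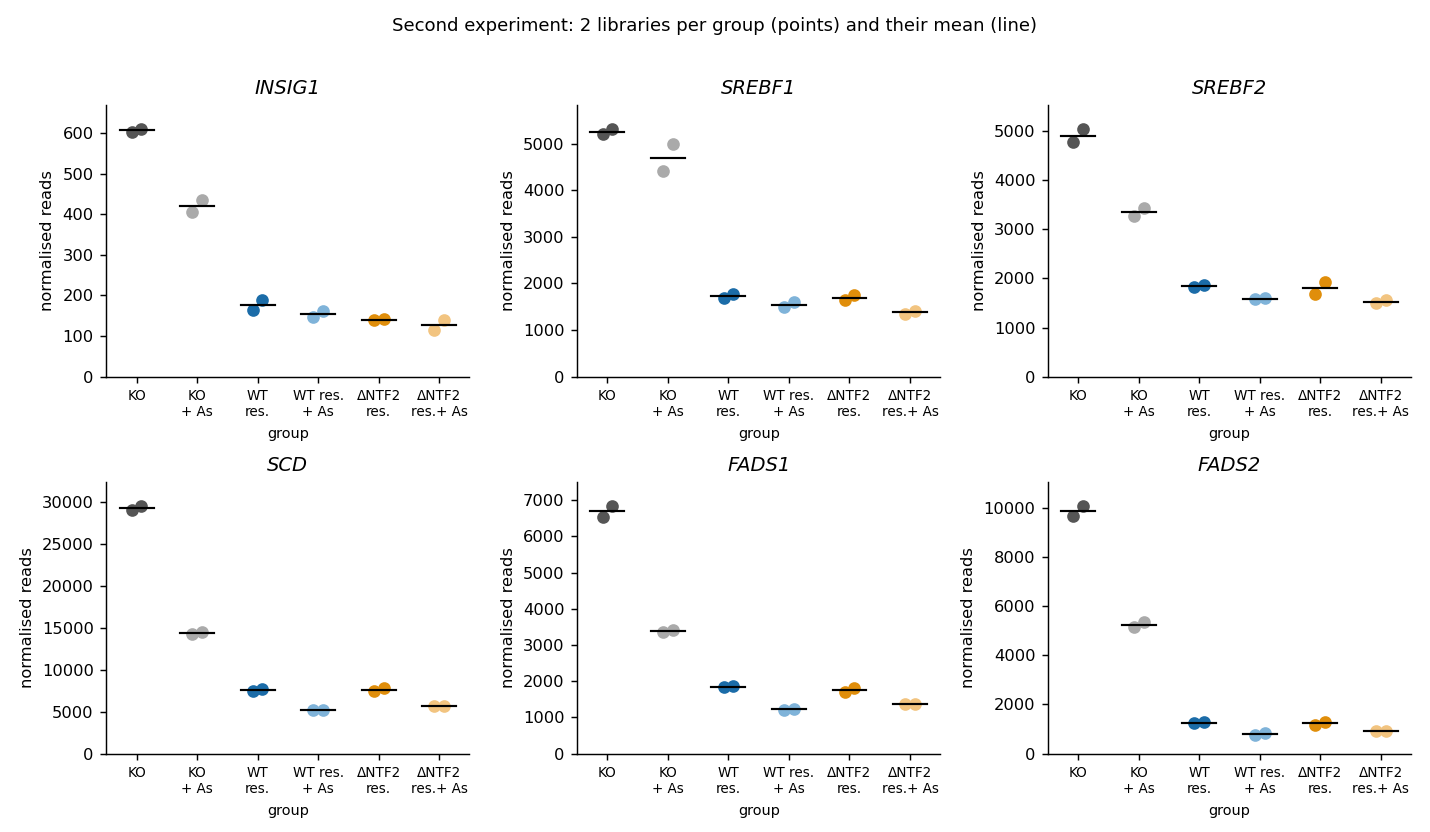
Normalised reads (linear axis from 0) of INSIG1, SREBF1, SREBF2, SCD, FADS1 and FADS2 in the 6 groups of the second experiment: knockout (KO), wild-type rescue (WT res.) and NTF2-deletion rescue (ΔNTF2 res.), each without and with arsenite (+ As). Points are the 2 libraries of a group and lines their mean; both rescues lie well below the knockout, and FADS1, FADS2 and SCD are lower with arsenite in every background.

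After 2 h in arsenite much of the pathway was lower, in knockout and in rescued cells. In knockout cells 16 of the 31 genes were lower and 2 higher after arsenite, with 19.4% of all tested genes called (8.56% higher and 10.9% lower). The wild-type rescue gave 13 lower and 2 higher (20.4% of all tested genes, 8.18% higher and 12.2% lower), and the NTF2-deletion rescue 9 lower and 1 higher (8.57%, with 2.43% higher and 6.14% lower), all by the adjusted p of the authors' deposited table. The medians over the 31 genes were -0.27, -0.11 and -0.12 in that order. These deposited fold changes were shrunk unequally. Their size relative to ratios of group means had a median of 0.98, 0.95 and 0.86 over the 31 genes. These 3 comparisons share no library. The 8 genes lower in all 3 were SQLE, SC5D, DHCR7, SREBF2, SCAP, SCD, FADS1 and FADS2, and 11 genes were called in none. The shares of all genes called in all 3 or in none were not computed, so such counts cannot be called particular to the set.

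The desaturases were among the genes that fell furthest, with SC5D (-0.69) and MSMO1 (-0.62) beside FADS2 (-0.64) at the lowest values in the wild-type rescue, in the authors' deposited table. SCD went from 29124 and 29535 normalised reads to 14302 and 14475 in knockout cells, from 7449 and 7762 to 5227 and 5245 in the wild-type rescue, and from 7431 and 7828 to 5657 and 5697 in the NTF2-deletion rescue. These are log2 changes of -1.02 ± 0.05, -0.55 ± 0.04 and -0.42 ± 0.05 (SE) in the authors' deposited table. FADS1 went to 3361 and 3402 in knockout, 1214 and 1237 in wild-type rescue and 1358 and 1367 in NTF2-deletion rescue cells. FADS2 reached 5148 and 5365, 764.0 and 848.0, and 909.5 and 918.4. In every background the arsenite libraries of these 3 genes lay below both unstressed libraries, which held for 31.5%, 25.7% and 25.0% of all genes in the 3 backgrounds, and knockout cells kept the highest level among the treated groups.

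HMGCS1 moved the other way, the 1 gene of the set higher in all 3 responses. It had 2299 and 2354 normalised reads in untreated and 3667 and 3801 in arsenite-treated knockout cells, 60.5% more. The wild-type rescue went from 2777 and 2797 to 3309 and 3330, and the NTF2-deletion rescue from 2503 and 2601 to 2875 and 2980. Log2 changes were 0.67 ± 0.07, 0.23 ± 0.04 and 0.18 ± 0.06 (SE), with adjusted p of 2.23e-18, 1.73e-06 and 0.0297 in the authors' deposited table (DESeq2). In the NTF2-deletion rescue limma-voom lost this call without either of 2 single libraries, an untreated and a treated one.

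Several squalene and sterol enzymes fell with the desaturases, while no gene of the mevalonate and isoprenoid steps was called lower. SQLE had 3578 and 3734 reads in untreated knockout cells and 2082 and 2205 with arsenite, and SC5D 815.3 and 888.6 against 407.1 and 492.4. NSDHL had 640.5 and 749.9 against 400.9 and 403.3, and MSMO1 734.0 and 897.8 against 429.8 and 485.4. For each of the 4 genes the treated libraries lay below both untreated ones, as for 31.5% of all genes. In all, 8 of the 11 squalene and sterol genes were called lower in knockout cells, 5 in the wild-type rescue and 3 in the NTF2-deletion rescue. Without 1 untreated knockout library limma-voom lost CYP51A1 in knockout cells. None of the 7 mevalonate and isoprenoid genes was called lower in any background, and HMGCS1 was the 1 called higher. In knockout cells 4 of the 7 had positive and 3 negative values. Of the latter, MVK went from 344.2 and 348.6 to 254.7 and 309.0 reads without a call. LSS was not called in any response (0.13, 0.10 and 0.09 on the log2 scale in the authors' deposited table).

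SREBF2 fell by 0.54 ± 0.07 in knockout, 0.23 ± 0.05 in wild-type rescue and 0.23 ± 0.08 (SE) in NTF2-deletion rescue cells on the log2 scale, and SCAP by 0.40, 0.27 and 0.24, in the authors' deposited table. SREBF1 was called lower in both rescues (-0.19 and -0.28) and was at -0.16 in knockout cells without passing, per the authors' deposited table. INSIG1 fell in knockout cells, from 603.9 and 609.1 to 405.1 and 436.2 reads, at -0.50 ± 0.14 (SE) with an adjusted p of 0.00236 in the authors' deposited table (DESeq2), and was not called in either rescue. In the wild-type rescue it went from 164.0 and 189.2 to 147.0 and 161.5, and in the NTF2-deletion rescue from 139.0 and 140.9 to 113.7 and 139.5. The INSIG1 response did not differ from that of knockout cells by the test in either rescue (0.33, 95% interval -0.06 to 0.72, and 0.42, interval 0.04 to 0.81 with an adjusted p of 0.237 from the normal test over all genes). Leaving out single libraries cost 6 of the 15 calls in the wild-type rescue at least once by limma-voom (SREBF1, SREBF2, EBP, ACLY, ELOVL6 and LPIN1) and 4 of the 10 in the NTF2-deletion rescue (HMGCS1, SREBF2, SCAP and SC5D).

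**Figure D3:**
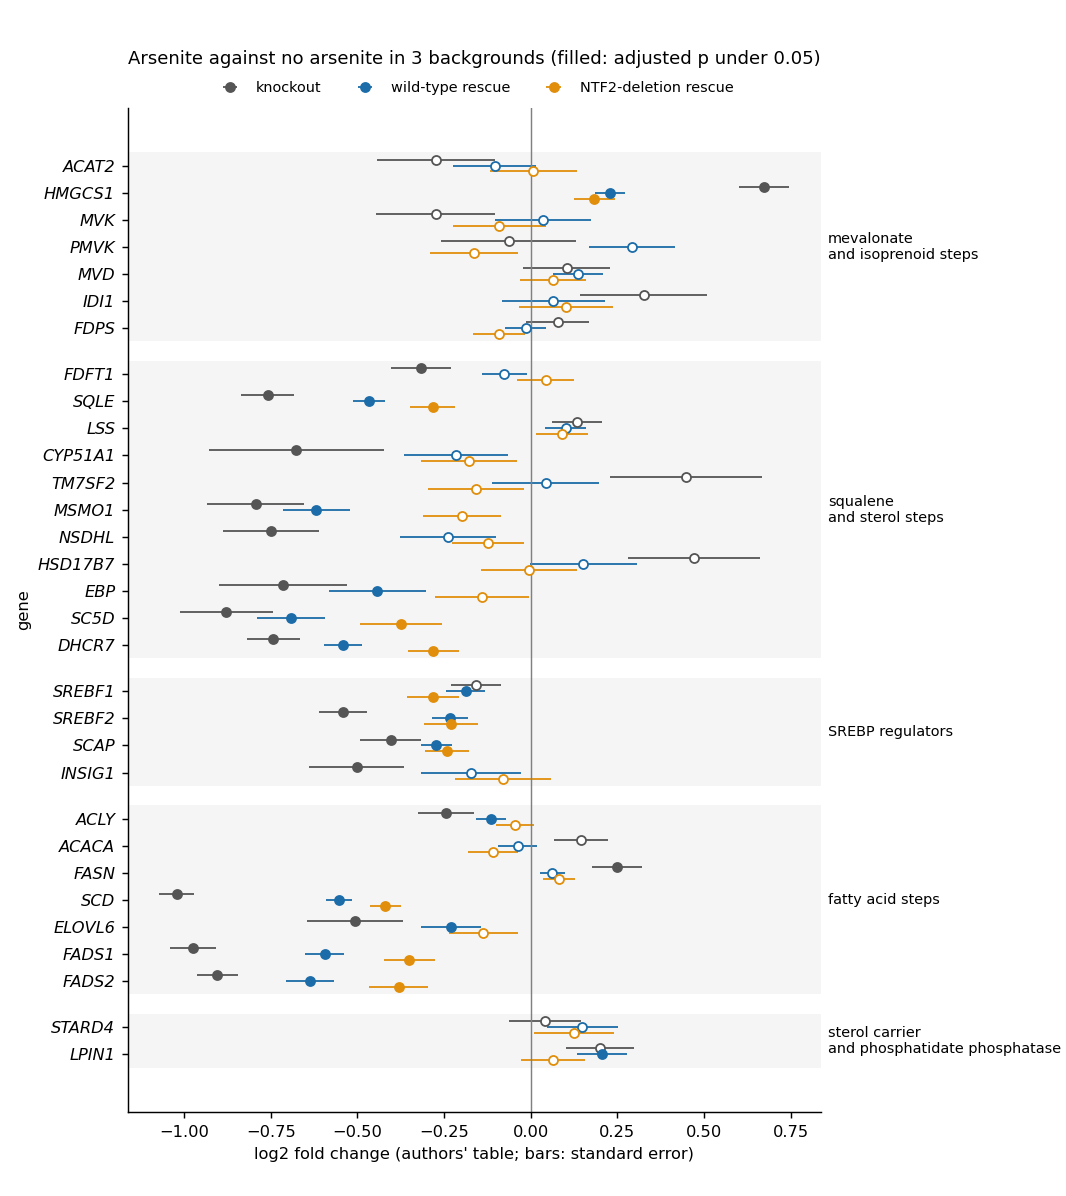
Log2 fold change of each gene after 2 h of 200 uM sodium arsenite in knockout (grey), wild-type rescue (blue) and NTF2-deletion rescue (orange) cells, with the authors' standard error as bars, 2 libraries per group; filled points have an adjusted p under 0.05. The grey points of SCD, FADS1, FADS2, SC5D, MSMO1, SQLE, NSDHL and DHCR7 lie further left than the coloured ones, and that of HMGCS1 further right.

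The differences between the responses were tested directly, as the difference of the deposited fold changes over their combined standard error. Wild-type rescue minus knockout passed for 5 of the 31 genes (4.51% of all genes, 1.82% higher and 2.68% lower): the decrease was smaller with G3BP1 for SCD by 0.47 ± 0.06, FADS1 by 0.38 ± 0.09, SREBF2 by 0.31 ± 0.09 and SQLE by 0.29 ± 0.09 (SE, log2), and HMGCS1, with a smaller increase, differed by -0.44 ± 0.08. NTF2-deletion rescue minus knockout passed for 10 (7.12% of all genes, 4.04% higher and 3.08% lower): HMGCS1 differed by -0.49, and FDFT1, SQLE, MSMO1, NSDHL, DHCR7, SREBF2, SCD, FADS1 and FADS2 were higher, by 0.31 for SREBF2 up to 0.63 for NSDHL. After centring each table on the median of all genes, SQLE missed the threshold in the first of these (adjusted p = 0.0524) and FDFT1 (0.0556) and SREBF2 (0.0603) in the second, all from the normal test over all genes. Without 1 untreated or 1 treated NTF2-deletion library limma-voom also lost SREBF2 in the second. In both comparisons the genes that passed had a response nearer 0 in rescued than in knockout cells. The stronger shrinkage of the rescue responses goes in the same direction, and its part was not tested. Both use the same knockout libraries. Wild-type rescue minus NTF2-deletion rescue passed for 0 of 31 (0.328% of all genes), with 8 genes at an unadjusted p under 0.05 (4.04% of all genes) and 0 calls by limma-voom (0.126% of all genes). The furthest of these differences were MSMO1 at -0.42 (95% interval -0.71 to -0.13) and PMVK at 0.46 (0.11 to 0.80).

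With arsenite present in both arms, rescued cells still had less of most of these mRNAs than knockout cells. Wild-type rescue against knockout, both stressed, gave 16 genes lower and 3 higher (45.4% of all genes called, 26.1% higher and 19.3% lower), and NTF2-deletion rescue against knockout 16 lower and 4 higher (43.4%, with 24.3% higher and 19.2% lower). Both differences subtract tables that share the untreated knockout libraries, which makes their error too large, and limma-voom on the direct contrast called 29 genes for the wild-type rescue, 23 lower and 6 higher (71.6% of all genes). FADS2 stood at -2.68 ± 0.09 and -2.52 ± 0.09, SREBF1 at -1.59 ± 0.10 and -1.76 ± 0.10, and INSIG1 at -1.42 ± 0.21 and -1.71 ± 0.22 (SE, log2). SQLE did not differ by the test in either (-0.14 ± 0.10 and -0.14 ± 0.10), with 2082 and 2205 normalised reads in stressed knockout cells, 1921 and 1948 in the stressed wild-type rescue and 1936 and 1967 in the stressed NTF2-deletion rescue. ELOVL6, ACLY and SCAP were higher in both stressed rescues, SCAP by 0.34 and 0.36, but after centring on the median of all genes none of the 3 passed in the wild-type rescue and only ACLY did in the NTF2-deletion rescue. NSDHL was also higher in the NTF2-deletion rescue (0.48), a call lost after centring. The 2 stressed rescues differed for 0 of the 31 genes by this test (0.0785% of all genes, 0.0483% higher and 0.0302% lower). At an unadjusted p under 0.05 there was 1, HMGCS1 (1.2% of all genes). Limma-voom called 2, HMGCS1 at 0.18 (adjusted p = 0.0147) and LPIN1 at 0.24 (adjusted p = 0.0266), both higher in the wild-type rescue, and 3.43% of all genes.

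Stressed rescued cells set against untreated knockout cells combine both contrasts. The wild-type rescue with arsenite had 19 genes lower and 4 higher (44.9% of all tested genes called, 25.1% higher and 19.8% lower) with a median of -0.62, and the NTF2-deletion rescue with arsenite 19 lower and 3 higher (43.0%, with 23.3% higher and 19.6% lower) with a median of -0.67, in the authors' deposited table. FADS2 was the lowest in both, at -3.58 ± 0.06 and -3.42 ± 0.06 (SE) in the authors' deposited table. HMGCS1 was the highest, at 0.53 and 0.34 there. FASN, at 0.15 and 0.13, and ACLY, at 0.22 and 0.28, were also called higher in the authors' deposited table. After centring, FASN lay at -0.07 and -0.06, and ACLY at -0.0038 and 0.09. MVD (0.31), the fourth higher gene of the stressed wild-type rescue in the authors' deposited table, lost its call after centring, as HMGCS1 did in the stressed NTF2-deletion rescue. Without a single library limma-voom lost MVD, ACLY and FASN in the first and FASN and ACAT2 in the second.

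The first experiment gave a different picture, with the mevalonate steps lower in knockout cells. Knockout against wild-type cells had 19 of the 31 genes lower and 6 higher (37.8% of all tested genes called, 18.4% higher and 19.4% lower), with a median of -0.30 against 0.01 for all tested genes, in the authors' deposited table. All 7 mevalonate and isoprenoid genes had negative values and 6 passed. HMGCS1 had 15064 and 15097 normalised reads in wild-type and 7416 and 7900 in knockout libraries, a 1.97-fold lower mean. ACAT2, acetyl-CoA acetyltransferase, had 2827 and 3029 against 1266 and 1528, and IDI1, which isomerises the isoprenoid units, 1224 and 1325 against 702.2 and 725.0. Each of the 3 separated the groups fully, as did 78.1% of all genes (38.5% with the knockout lower). Their log2 changes were -0.98 ± 0.05, -1.06 ± 0.09 and -0.83 ± 0.11 (SE) in the authors' deposited table, and PMVK alone was not called.

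LPIN1 went from 7015 and 7166 in wild-type to 3255 and 3531 in knockout libraries and STARD4 from 6320 and 6444 to 3822 and 3898. Of the squalene and sterol enzymes 8 were lower and 2 higher. LSS was the higher one by most, from 6230 and 6485 to 8938 and 9226, while MSMO1 passed narrowly (0.18, adjusted p = 0.0479, DESeq2) in the authors' deposited table. Without a single library limma-voom lost MSMO1 and TM7SF2. SREBF1 rose from 7348 and 7628 to 11213 and 12011, a log2 change of 0.63 ± 0.06 (SE), while INSIG1 fell by 0.40 ± 0.10 and SREBF2 (-0.07) and SCAP (-0.06) were not called, in the authors' deposited table. SREBF2 overlapped, with 14225 and 15689 in wild-type and 13726 and 14790 in knockout libraries. ELOVL6 rose by 0.58, SCD by 0.37 and ACACA by 0.21, ACLY (-0.30) and FASN (-0.23) fell, and FADS1 (-0.02) and FADS2 (-0.09) did not pass, on the log2 scale of the authors' deposited table. The desaturases FADS1 and FADS2 overlapped between the groups, FADS2 with 23700 and 25741 in wild-type and 21787 and 24918 in knockout libraries.

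Rescue in the first experiment moved the mevalonate genes one way and most regulators and fatty acid genes the other. Knockout against G3BP1 rescue had 11 genes higher and 11 lower in knockout cells (37.6% of all tested genes called, 16.1% higher and 21.5% lower), with a median of 0.09, in the authors' deposited table. All 7 mevalonate and isoprenoid genes were lower in knockout than in rescued cells, HMGCS1 by 0.74, ACAT2 by 0.71 and IDI1 by 0.52 on the log2 scale of the authors' deposited table. HMGCS1 had 12684 and 13025 normalised reads in the rescue, between the knockout and the wild-type libraries. The regulators and fatty acid genes went the opposite way: 3 of 4 and 5 of 7 were higher in knockout than in rescued cells, where limma-voom lost SCAP without 1 knockout library. Exceptions were ACLY and LPIN1, lower in knockout cells at -0.26 and -0.46 in the authors' deposited table. The 11 squalene and sterol genes were mixed, with 3 higher, 2 lower and 6 not called. FADS2 had 12718 and 12896 reads in the rescue against 21787 and 24918 in the knockout, SREBF1 6373 and 6569 against 11213 and 12011, and SCD 45122 and 47091 against 77111 and 87153. Their log2 changes were 0.86 ± 0.06, 0.84 ± 0.05 and 0.83 ± 0.05 (SE), SREBF2 was at 0.47 ± 0.05, and INSIG1 at 0.11 did not pass (adjusted p = 0.399, DESeq2), in the authors' deposited table.

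For most of the genes the rescued libraries lay below the wild-type libraries. Both lay below both wild-type libraries for 25 of the 31 genes (36.2% of all genes), and above them for 2 (38.6%). Wild-type against G3BP1 rescue had 24 of the 31 genes higher and 2 lower in wild-type cells (35.6% of all tested genes called, 15.2% higher and 20.4% lower), with a median of 0.29 against 0.004, in the authors' deposited table. FADS2 was highest at 0.94 ± 0.05 (SE), then CYP51A1 at 0.71 and HSD17B7 at 0.60, and the 2 lower genes were ELOVL6 (-0.22) and LSS (-0.14), in the authors' deposited table. SREBF2 had 14225 and 15689 reads in wild-type cells and 10098 and 10495 in the rescue, and INSIG1 1854 and 2092 against 1319 and 1454. The calls of ELOVL6 and LSS were lost after centring on the median of all genes, and limma-voom lost both, and MVD, without a single library.

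**Figure D4:**
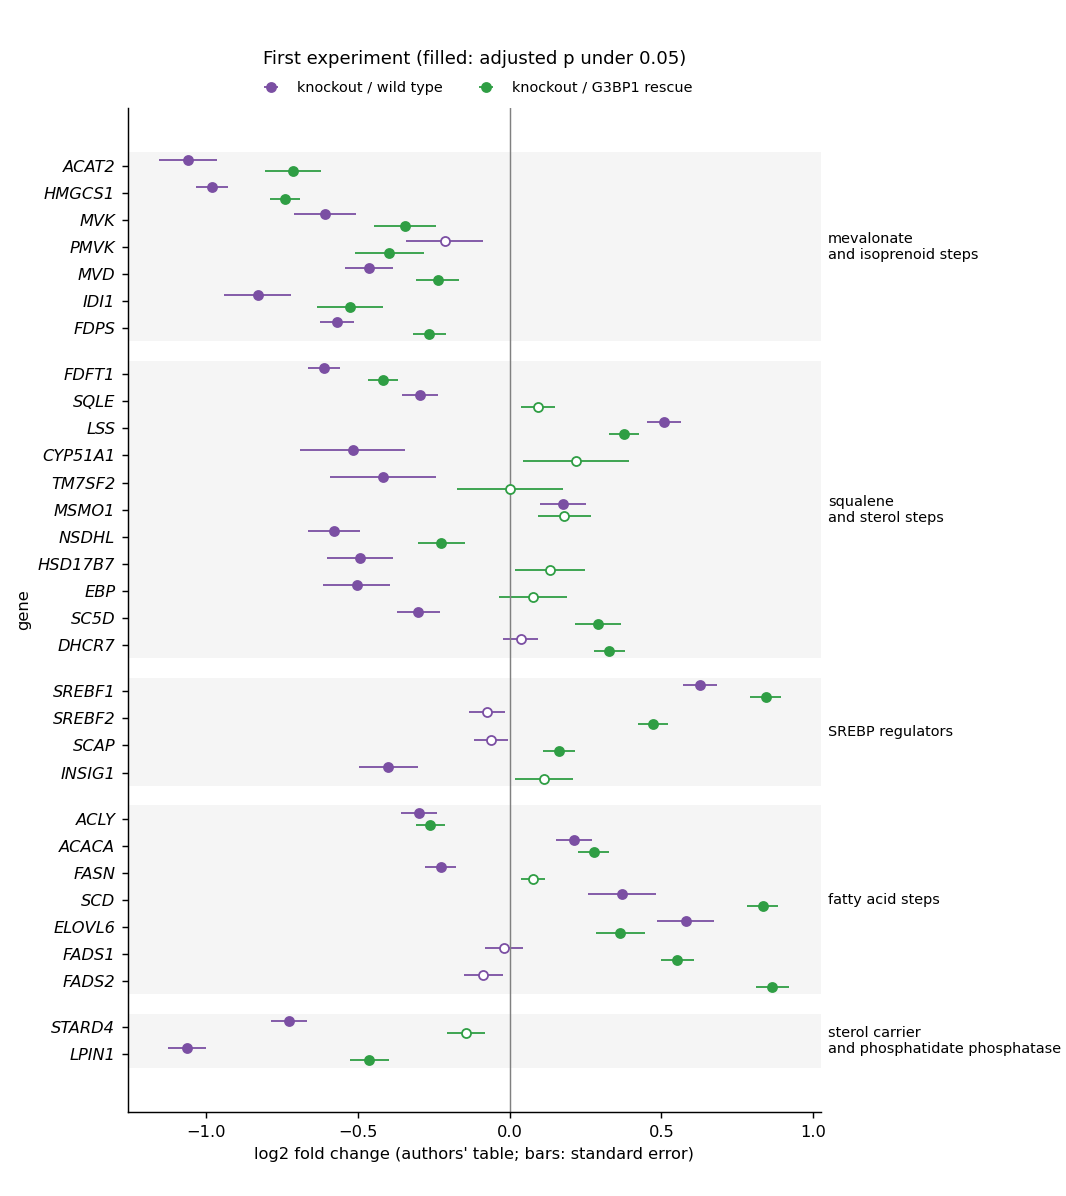
Log2 fold change of each gene in knockout against wild-type cells (purple) and in knockout against G3BP1-rescued cells (green) of the first experiment, with the authors' standard error as bars, 2 libraries per group; filled points have an adjusted p under 0.05. Both points of every mevalonate and isoprenoid gene lie left of 0, and the green points of SREBF1, SCD, FADS1 and FADS2 lie right of 0; both comparisons share the knockout libraries.

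The effect of G3BP1 rescue, rescued over knockout cells, was tested between the 2 experiments, which share no library. It was lower in the second experiment for 21 of the 31 genes and higher for 2, SCAP and ELOVL6 (37.3% of all genes called, 20.3% higher and 17.0% lower). SCAP did not pass after centring, and limma-voom lost SC5D without any 1 of 3 libraries. FADS2 was at -2.98 in the second and -0.86 in the first experiment, a difference of -2.12 ± 0.08 (SE, log2). STARD4 (-1.51 and 0.14) and INSIG1 (-1.76 and -0.11) differed by -1.66 ± 0.14 and -1.65 ± 0.20. ACAT2, MVK and IDI1 fell in the second and rose in the first, with differences of -1.27, -1.30 and -1.18. HMGCS1 rose in both, by 0.24 and 0.74, a difference of -0.50 ± 0.09, though the rise of 0.24 did not pass after centring. The experiments also differ in the size of the G3BP1 change, in depth and in the version number that the submitters' processing notes give for STAR, and the part of each in these differences was not tested.

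In RIP-seq most mevalonate and sterol enzymes were higher in the immunoprecipitate and most fatty acid enzymes lower. Of the 31 genes 17 were higher in the immunoprecipitate and 10 lower, in the authors' deposited table, where 56.1% of all tested genes were called, 24.7% higher and 31.4% lower. The median was 0.42, against -0.26 for all tested genes and 0.12 for genes whose base mean reached 100. Of the 7 mevalonate and isoprenoid genes 5 were higher and of the 11 squalene and sterol genes 10, while 4 of the 7 fatty acid genes were lower. ACAT2 stood at 2.15 ± 0.13, PMVK at 1.83 ± 0.17 and EBP at 1.70 ± 0.13 (SE, log2), and ACACA at -3.23 ± 0.14, FASN at -3.05 ± 0.15 and LPIN1 at -2.90 ± 0.20, in the authors' deposited table. SREBF1 (-1.11) and SREBF2 (-0.89) were lower and INSIG1 (0.75) higher there, and ELOVL6, FADS1, SCAP and STARD4 were not called. The Wald statistics of this table spread 7.07 times as wide as a standard normal distribution. With the statistics divided by that spread 0 of the 31 genes and 0.244% of all genes were called. The spread is taken over all genes, so a broad difference between immunoprecipitate and input enters it and few genes can pass. The 0 is therefore no result about the 31 genes. Values per library were not recovered for the RIP-seq table.

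**Figure D5:**
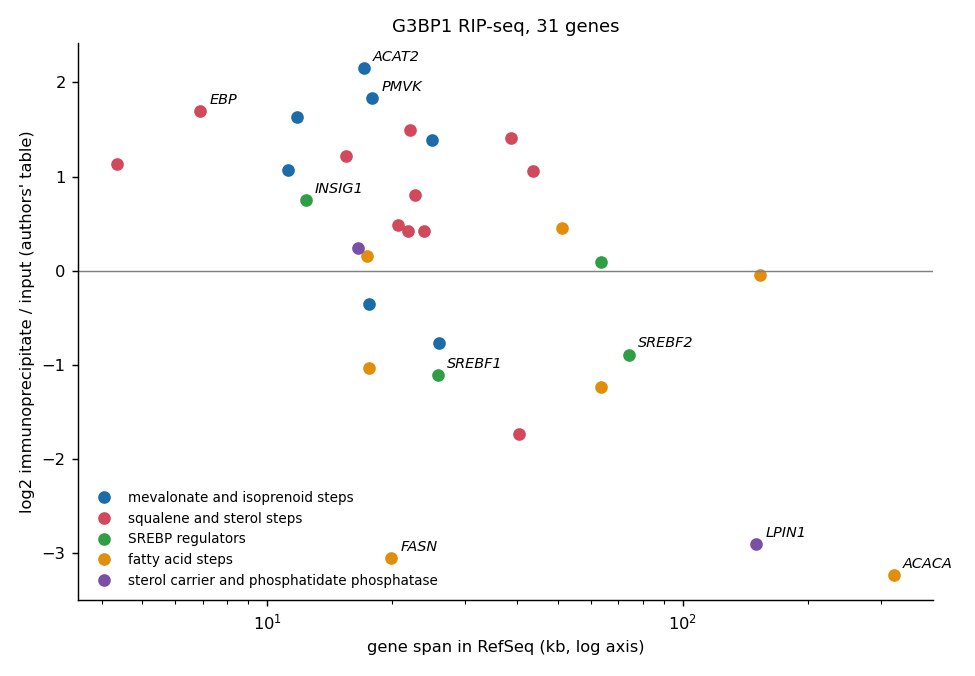
Log2 fold change of immunoprecipitate over input in the authors' deposited table (vertical axis) against the span of the gene in RefSeq (GRCh38.p14, kb, log axis) for the 31 genes, coloured by role, with 3 libraries per group. ACAT2, PMVK and EBP are at the top left and ACACA and LPIN1 at the bottom right, while FASN is at the bottom with a span of 19.9 kb.

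Genes with a longer span in the genome tended to have lower values in RIP-seq, with a Spearman rho of -0.56 across the 31 genes, which share their libraries and are not independent. The same rho over all genes was not computed, so the trend cannot be called particular to this set. Span includes introns and is not transcript length. FASN, with a span of 19.9 kb and a value of -3.05 in the authors' deposited table, lay outside that trend.

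The 32 other genes of these pathways, which are no members of the set, had no common direction in the rescue. Wild-type rescue against knockout had 12 higher and 12 lower (23.0% and 19.1% of all tested genes), with a median of 0.16. NTF2-deletion rescue had 12 and 14 (22.8% and 18.7%), with a median of 0.13, both in the authors' deposited table. The 3 SREBP-processing genes, INSIG2 and the site proteases MBTPS1 and MBTPS2, had 2 lower in each rescue and 1 higher in the wild-type rescue, and of the 12 genes of acyl-CoA formation and elongation 6 and 7 were lower and 5 and 5 higher. Under arsenite more of the other genes were lower than higher, in the authors' deposited table. In knockout cells 16 of 32 were lower and 1 higher (10.9% and 8.56% of all tested genes). The wild-type rescue had 16 and 1 of the 31 tested (12.2% and 8.18%), and the NTF2-deletion rescue 8 and 0 of the 29 tested (6.14% and 2.43%). Not every list went down: the 3 phosphatidate and glycerolipid genes had 1 higher and 0 lower in knockout cells. The 5 genes of sterol efflux and LXR gave no call in any of the 3 responses (4 of them tested in each rescue). In knockout against wild-type cells of the first experiment 4 of those 5 were higher and 0 lower, with a median of 0.74. Of all tested genes 18.4% were higher and 19.4% lower there, in the authors' deposited table.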

How the data were processed

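The data were 11 tables in which the authors compared groups with DESeq2 (2.11.40.6 per the submitters' processing notes, which also list STAR as 2.7.0f and 1.5.3). The genome build is not given in the sources used here. Each deposited table holds a base mean (a normalised signal over its libraries), a log2 fold change shrunk toward 0 by the authors' software, its standard error, a Wald score (fold change over error), a p-value and an adjusted p-value, for 61541 genes. No gene counts per library were used as deposited; 24 of the 72 libraries enter the tables and 48 were not analysed here.

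Whole reads per library were worked out from the base means of tables that share groups (relative tolerance 1e-12). They were obtained for 99.96% of genes in the first and 100.0% in the second experiment, and for all 31 genes of the set. The recovered libraries carry no replicate numbers. Main calls are the authors' adjusted p under 0.05. Differences between tables were tested as the difference of fold changes over the root of the summed squared errors (normal, two-sided), with Benjamini-Hochberg adjustment over all genes whose base mean reached 10 in both tables. Alternatives were an adjusted p under 0.01, centring on the median of genes whose base mean reached 100, other filters on low genes, ratios of group means and, for RIP-seq, rescaled Wald scores. Added after seeing the data were limma-voom (limma 3.58.1, R 4.3.3) on the recovered reads of genes with a mean of at least 10 normalised reads, and leaving out each library. Both tests were run on simulated data. For the difference test the noise followed the model that the test assumes, with no library shared between tables. For limma-voom every gene had the same dispersion setting. Neither run therefore checks the tests against the spread of these data. Other computation used Python 3.11.15 with numpy 2.4.6, scipy 1.17.1 and pandas 2.3.3.

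The members, lists and tests were chosen with earlier results of these data known. All 31 genes could be named; examples were the 3 highest and 3 lowest called values, with INSIG1, SREBF1 and SREBF2, and further members were named after their values were seen, to describe each role. The epithelial markers EPCAM and CDH1 had base means of 911.1 and 22.8 in RIP-seq, 453.0 and 27.9 in the first and 93.7 and 8.62 in the second experiment.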

Additional observations from a re-analysis of the deposited data

Results flagged for a closer look

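The arsenite response of several genes differed between rescued and knockout cells by the test of the difference itself (log2, rescued minus knockout). For wild-type rescue the differences were -0.44 for HMGCS1, 0.29 for SQLE, 0.31 for SREBF2, 0.47 for SCD and 0.38 for FADS1. For NTF2-deletion rescue they were -0.49 for HMGCS1, 0.36 for FDFT1, 0.48 for SQLE, 0.60 for MSMO1, 0.63 for NSDHL, 0.46 for DHCR7, 0.31 for SREBF2, 0.60 for SCD, 0.62 for FADS1 and 0.52 for FADS2. Each of these genes had a response nearer 0 in rescued cells, and both sets of differences use the same knockout libraries. Unstressed levels of most of these genes were already lower in rescued cells, and the deposited responses were shrunk more in both rescues. The part of either in the smaller responses was not tested.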

How the results depend on the processing

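Of the calls of single genes in the tables and differences, 266 held at an adjusted p under 0.01 and 43 did not. After centring on the median of all genes 285 held, 21 no longer passed and 3 changed sign: FASN to -0.074 (wild-type rescue with arsenite against knockout) and -0.059 (NTF2-deletion rescue with arsenite), and ACLY to -0.0038 (wild-type rescue with arsenite). Limma-voom kept 281 calls and lost 1, ACLY under arsenite in wild-type rescue (adjusted p = 0.171). It called 67.2% of its genes in wild-type rescue against knockout, where the deposited table called 42.1%. In knockout against wild type the shares were 59.1% and 37.8%, and for arsenite in wild-type rescue 20.6% and 20.4%. The sets of genes differ, and where limma-voom calls more, a kept call adds little. Centring moved the median of the 31 genes to -0.75 in wild-type rescue, -0.78 in NTF2-deletion rescue, -0.84 in stressed wild-type rescue and -0.86 in stressed NTF2-deletion rescue, each against knockout. With rescaled Wald scores 0 of the 31 genes were called in RIP-seq (0.244% of all genes). The difference in arsenite response between wild-type rescue and knockout was called for 3 genes at an adjusted p under 0.01 and for 8 by limma-voom, which called 10.4% of all genes there. With arsenite in both arms, limma-voom called 2 genes between the rescues (3.43% of all genes) and 29 between wild-type rescue and knockout, where it also called 71.6% of all genes.

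Leaving out 1 library at a time, the median ranged from -0.40 to -0.26 for arsenite in knockout, -0.81 to -0.62 for stressed wild-type rescue against knockout, 0.019 to 0.14 for knockout against rescue in the first experiment and 0.26 to 0.35 for wild type against that rescue. Calls ranged from 5 to 10 for the difference in arsenite response between wild-type rescue and knockout and from 11 to 16 for that between NTF2-deletion rescue and knockout. With all libraries limma-voom called 10.4% and 13.7% of all genes in these differences. Shares of all genes without single libraries were not kept. No paired analysis was possible because neither the deposited tables nor the recovered libraries carry replicate numbers. Precision was lowest for CYP51A1, TM7SF2, HSD17B7 and IDI1 in wild-type rescue against knockout, with standard errors of 0.28, 0.27, 0.25 and 0.24, and the part of depth in this was not tested.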
